A study of Caenorhabditis elegans with 2 samples.

Results

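Nuclear hormone receptor genes were taken as the protein-coding genes whose annotated name starts with nhr-, plus daf-12, unc-55, odr-7 and sex-1. The rule gave 273 of 19985 protein-coding genes. It rests on gene names, and the receptor domain was not checked in the proteins. Of the 273, 14 were conserved members, which have known counterparts outside the nematodes: nhr-6, nhr-8, nhr-23, nhr-25, nhr-41, nhr-48, nhr-67, nhr-85, nhr-91, nhr-111, nhr-239, daf-12, sex-1 and unc-55. The other 259 are called expanded members here, 166 on chromosome V and 93 elsewhere. The family sat mostly on V, which carried 167 of its 273 genes (61.2%) and 24.5% of the 19700 other nuclear protein-coding genes.

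The sites of F10B5.3, a BTB domain-containing protein, were mapped by ChIP-seq in whole hermaphrodites at the L4 stage. The worms were of strain OP529, genotype unc-119(tm4063) III; wgIs529, and carried F10B5.3 fused at its C terminus to GFP and FLAG. They were collected 48 hours after starved L1 larvae were synchronized, and an antibody to GFP was used for the precipitation. All data come from 1 group of 2 biological replicates in this transgenic strain, with no second condition, so values are counts and descriptions without a test. Lists from untagged worms or other tagged proteins were not analysed here. What the animal's cell types each contribute cannot be told apart in whole worms.

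Nuclear hormone receptors are transcription factors that bind DNA through zinc fingers and, in many cases, a small lipid-like ligand through a second domain. In C. elegans the conserved members are known for roles in molting, developmental timing, dauer entry, sex determination and neuron identity. Most of the remainder descend from an HNF4-like ancestor by repeated duplication, and many act, where studied, in fat metabolism, nutrient response and detoxification.

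For each gene the value was the highest signal, in the units of the authors' peak caller, among calls with a summit within 1000 bp of one of its transcription start sites (TSSs). The pooled relaxed list held 30000 calls, weak ones included, and its lowest signal was 18.4. The relaxed lists of replicate 1 and replicate 2 held 22211 and 27642 calls, with lowest signals of 12.5 and 12.8. The irreproducible discovery rate (IDR) set held 862 peaks, down to a pooled signal of 86.5. A gene with an IDR summit within 1000 bp of a TSS is called bound.

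Bound sites were few in the family. Of 273 receptor genes 4 were bound (1.47%), against a background of 3.31% of all 19973 nuclear protein-coding genes. On V, which carries most of the family, 1.96% of all genes were bound. Off V 3 of 106 members were bound (2.83%), against 3.77% of other genes there. The 4 bound members were nhr-47 on V and nhr-1, nhr-48 and nhr-255 on X. The sequence at each summit is shown because these sites carry the strongest signals of the family within 1000 bp of a TSS. They are followed by 3 unbound expanded members with high signals (nhr-142, nhr-119 and nhr-286) and nhr-41, the next highest conserved member. Not printed are nhr-66 (69) and nhr-49 (68.2), unbound expanded members with signals above nhr-286 (62.2). The nhr-49 window also held GAGAGA. Each printed sequence is the ce11 plus strand within 50 bp of the pooled summit, without annotated untranslated sequence, from the RefSeq WBcel235 genome. Capitals mark GAGAGA on either strand.

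nhr-47, chrV:5505179-5505252: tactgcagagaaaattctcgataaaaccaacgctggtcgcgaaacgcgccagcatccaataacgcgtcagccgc
nhr-1, chrX:17513634-17513734: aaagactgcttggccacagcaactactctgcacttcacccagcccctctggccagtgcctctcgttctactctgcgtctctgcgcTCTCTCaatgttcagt
nhr-48, chrX:15707412-15707512: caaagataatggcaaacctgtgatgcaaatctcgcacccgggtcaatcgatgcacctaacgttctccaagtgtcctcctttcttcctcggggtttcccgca
nhr-255, chrX:15741976-15742076: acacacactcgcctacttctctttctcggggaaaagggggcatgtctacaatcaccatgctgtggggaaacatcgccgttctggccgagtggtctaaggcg
nhr-142, chrV:5791046-5791146: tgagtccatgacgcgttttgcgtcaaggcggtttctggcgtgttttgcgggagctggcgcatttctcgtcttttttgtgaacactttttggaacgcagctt
nhr-119, chrII:2800982-2801082: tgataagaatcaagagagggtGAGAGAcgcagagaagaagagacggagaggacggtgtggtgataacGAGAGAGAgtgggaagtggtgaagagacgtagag
nhr-286, chrV:7091089-7091189: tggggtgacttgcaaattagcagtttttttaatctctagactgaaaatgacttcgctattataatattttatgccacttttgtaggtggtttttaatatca
nhr-41, chrIV:1388200-1388300: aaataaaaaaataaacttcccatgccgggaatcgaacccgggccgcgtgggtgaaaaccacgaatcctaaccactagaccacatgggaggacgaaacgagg

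The highest site lay at nhr-47, an expanded member on V. Its IDR peak, chrV:5505164-5505308, was 145 bp wide and had its summit 24 bp upstream of the nhr-47 TSS. The signal was 172 in the pooled list, 65 in replicate 1 and 98.8 in replicate 2, at the same site in both. The summit also lay 372 bp from the TSS of dnj-19, a gene of the DnaJ chaperone family. Among 862 IDR peaks it ranked 214, and it was the only bound member among the 431 peaks of higher signal.

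The other bound members lay on X, between protein-coding genes, upstream of their TSSs. At nhr-1 the pooled signal was 110.6, with 54.5 in replicate 1 and 57.9 in replicate 2, and the summit was 379 bp upstream. At nhr-48, related to daf-12 and nhr-8, it was 95.8, with 52.9 in replicate 1 and 42 in replicate 2, and the summit was 751 bp upstream. At nhr-255 it was 92.5, with 52.9 in replicate 1 and 39.1 in replicate 2, and the summit was 584 bp upstream. All of these sites were found in both replicate lists, and no further protein-coding gene had a TSS within 1000 bp of them. Among the 862 highest calls of replicate 1 alone all 4 bound members stayed, and among those of replicate 2 alone nhr-48 and nhr-255 did not, which left 2.

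The nhr-255 and nhr-41 sites lay at tRNA genes. A tRNA gene was within 200 bp of the nhr-255 summit (WBGene00014626) and of the nhr-41 summit (WBGene00023202). Each window held at least 1 sequence of 31 bp that occurs elsewhere in the genome, so which copy gave the signal is uncertain. Such a sequence was in 10 of 103 member windows (9.71%), and no share over other genes was taken. The others were nhr-125, nhr-65, nhr-170, nhr-231, nhr-70 and nhr-247 on V, nhr-76 on IV and nhr-109 on II. Without calls near tRNA, snoRNA and snRNA genes 3 members were bound, against 2.81% of other genes. X carried 26 members, of which 3 were bound (11.5%), against a background of 3.22% of all X genes. That count rests on nhr-1, nhr-48 and nhr-255, and the last of these is the site at the tRNA gene. With a reach of 500 bp, and with replicate 2 alone, nhr-1 was the only member bound on X. No share of all X genes was taken at those settings.

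In all 8 unbound members had pooled signals of 50 or more: nhr-142, nhr-119, nhr-66, nhr-49, nhr-286, nhr-41, nhr-88 and nhr-207, from highest to lowest. These were 7.69% of the members with a call, against 14.3% of other genes with a call. The bound member of lowest signal was nhr-255, and the unbound member of highest signal was nhr-142 at 81.3, on either side of the IDR limit of 86.5. At nhr-142 the signal was 28.7 in replicate 1 and 50.3 in replicate 2, and the summit was nearer to the TSS of F44E7.9 (134 bp) than to its own (543 bp). At nhr-119 it was 73.5 in the pool, 31.1 in replicate 1 and 35.7 in replicate 2, and the window held GAGAGA 3 times, counting overlaps. At nhr-286 it was 62.2, with 35.3 in replicate 1 and 28 in replicate 2, at a summit inside an intron. Each of these sites was found in both replicates.

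Calls of any strength were present at a smaller share of receptor genes than of other genes. In all 104 of 273 members had a pooled relaxed call near a TSS (38.1%), against a background of 47.5% of all nuclear protein-coding genes. Of the 104, 4 were bound (3.85%), against 6.97% of all genes with a call. Their median signal was 27.1, with quartiles of 22.3 and 36.1, against a median of 33 and quartiles of 25.1 and 46.7 at 9379 other genes with a call. Among the members with a call 59 had a signal under 30 (56.7%), against 41.5% of the other genes. Off V a call was present at 53 of 106 members (50%), against 52% of other genes. These members had more TSSs on average, 1.93 against 1.49 at other genes off V. Per kb of sequence within 1000 bp of a TSS they had 0.328 calls, against 0.385. By chromosome the shares were 33.3% of members and 58.6% of other genes on I, 46.7% and 46.7% on II, and 75% and 61.2% on III. They were 51.5% and 48.6% on IV, and 57.7% and 47% on X. Of the 948 genes with the highest signals, 10% of all genes with a call, 6 were members.

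**Figure D1:**
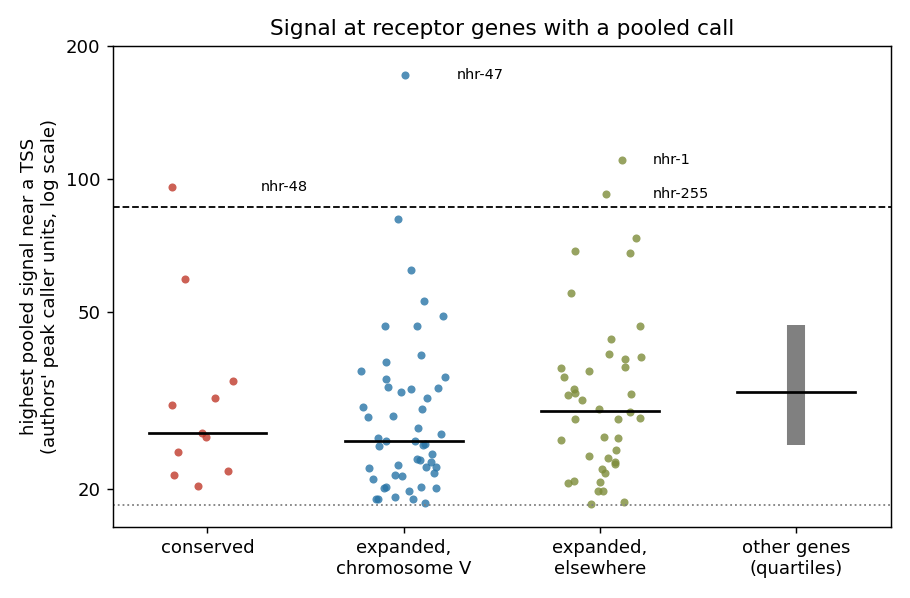
Highest pooled signal near a TSS (log scale, the authors' units) for each receptor gene with a call: 11 conserved, 51 expanded on chromosome V and 42 expanded elsewhere. Points are genes, black bars are medians, the grey bar spans the quartiles of other genes, the dashed line is the lowest IDR signal (86.5) and the dotted line the lowest pooled signal (18.4); 4 points lie above the dashed line, and the medians of 26.7, 25.6 and 30 lie below that of other genes, 33.

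Most conserved members had a call, and 6 of the 11 calls had a signal under 30. A pooled call was present at 11 of 14 (78.6%), and 1 of 14, nhr-48, was bound. Of the other signals 3 lay between 30 and 50, and those of nhr-41 and nhr-48 were above 50. The chromosome V members had a call in 51 of 166 cases (30.7%), and 1 of 166, nhr-47, was bound. The expanded members elsewhere had a call in 42 of 93 cases (45.2%), and 2 of 93 were bound. Of all nuclear protein-coding genes 47.5% had a call and 3.31% were bound. The share with a call among expanded members elsewhere was near the first of these. Signals did not follow the same order as the shares: the medians were 26.7 at conserved members, 25.6 at expanded members on V, 30 at expanded members elsewhere and 33 at other genes.

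Conserved members also had more start sites, 2.93 annotated TSSs on average and 3980 bp of sequence within reach of one, against 1.44 TSSs and 2195 bp for expanded members on V. Calls per kb of that sequence were 0.449 at conserved members and 0.208 at expanded members on V. They were 0.352 at other genes of all chromosomes and 0.248 at other genes of V. Among genes with a single TSS 4 of 5 conserved members, 26.1% of expanded members on V and 42.1% of other genes had a call. Of the other genes of V with a single TSS 29% had one, a share near that of the expanded members there. Among genes with more TSSs these were 7 of 9 conserved members, 22 of 55 expanded members on V (40%) and 63.2% of other genes. With a reach of 500 bp 5 of 14 conserved members had a call, a share near the 35.1% of other genes at that reach, and the difference in share from V was 13.4 percentage points instead of 47.85. The part of TSS number in this difference was not tested beyond these values.

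Of the conserved members with roles in molting and timing, nhr-41 was highest, at a pooled signal of 59.4, with 27.8 in each replicate. In replicate 2 the call at the pooled site had 27.04. The gene nhr-41 is a relative of the Drosophila receptor Hr78, and its pooled site is the one at a tRNA gene. At daf-12, the receptor of the steroid dafachronic acid that governs dauer entry, the signal was 32.1, with 24.2 in replicate 1 and 23.8 in replicate 2. The replicate 2 call lay more than 100 bp from the pooled summit. At nhr-85, a relative of Rev-erb that acts with nhr-23 in timing, it was 30.9, with 15.5 in replicate 1 and 12.9 in replicate 2. At nhr-23, a relative of ROR and a driver of molting, no pooled call was listed, and the replicates had 14.1 and 20.1 at sites over 100 bp apart. At nhr-25, the FTZ-F1 relative needed for epidermis and molting, the sole call was 19 in replicate 1. None of these genes was bound.

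The remaining conserved members were unbound. At nhr-239 the pooled signal was 35.1, with 16.6 in replicate 1 and 19.7 in replicate 2. At nhr-6, the NR4A relative that acts in spermatheca development, it was 26.7, with 19.4 in replicate 1 and 13.5 in replicate 2. In both, the replicate 2 call lay away from the pooled summit. The neuron genes unc-55, a COUP-TF relative that sets motor neuron wiring, and nhr-67, a tailless relative, had 26.2 and 24.2. Each was called in replicate 1 (14.5 and 12.5) and not in replicate 2. At nhr-111 no list held a call. The same was true of odr-7, which specifies the AWA olfactory neuron and is counted among the expanded members here.

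The sex determination gene sex-1, which reads X chromosome dose by repressing xol-1, had a pooled signal of 21.5, with 15.6 in replicate 2 and no call in replicate 1. At nhr-8, a receptor of sterol and toxin response, it was 21.9, with 15.8 in replicate 1 and 24.2 in replicate 2. Its summit lay in the 5′ UTR, 43 bp from its TSS and within reach of the mitochondrial ribosomal protein gene mrps-24. At nhr-91, a relative of the germ cell nuclear factor, it was 20.3, with 18.2 in replicate 1 and 17.7 in replicate 2, neither at the pooled summit. Only nhr-48, nhr-41 and nhr-85 among the 14 had replicate summits within 100 bp of each other.

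**Figure D2:**
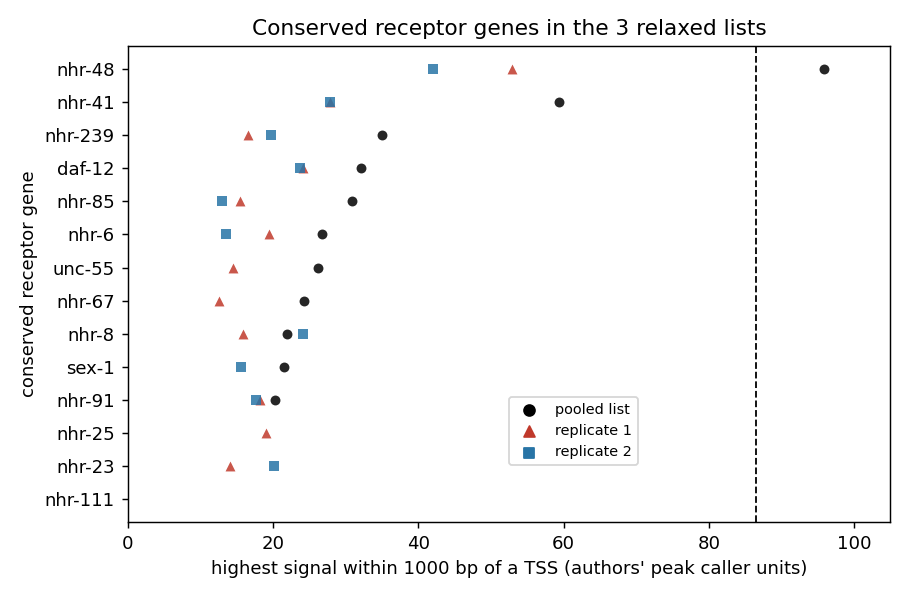
Highest signal within 1000 bp of a TSS at the 14 conserved receptor genes in the pooled list (circles), replicate 1 (triangles) and replicate 2 (squares), in the authors' units, which differ between pooled and replicate lists. The dashed line is the lowest IDR signal of the pooled list (86.5): nhr-48 alone passes it, and nhr-111 has no point.

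The expanded members on V had a call at a share near that of their chromosome. Of the 166 members 30.7% had one, against a background of 33.9% of all 4994 genes of V. For bound genes the count was 1 of 166 (0.602%), against 1.96% of all genes of V. Their median signal of 25.6 lay under the 31.9 of other V genes with a call. Along V the share varied with position for members and for other genes. From 0 to 5 Mb it was 31.1% of 74 members and 29.4% of 1080 other genes. From 5 to 10 Mb it was 24.1% of 29 and 36% of 1173, from 10 to 15 Mb 62.5% of 16 and 41.7% of 1246, and from 15 to 20 Mb 23.4% of 47 and 25.7% of 1151. Beyond 20 Mb there were 177 other genes and no members.

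**Figure D3:**
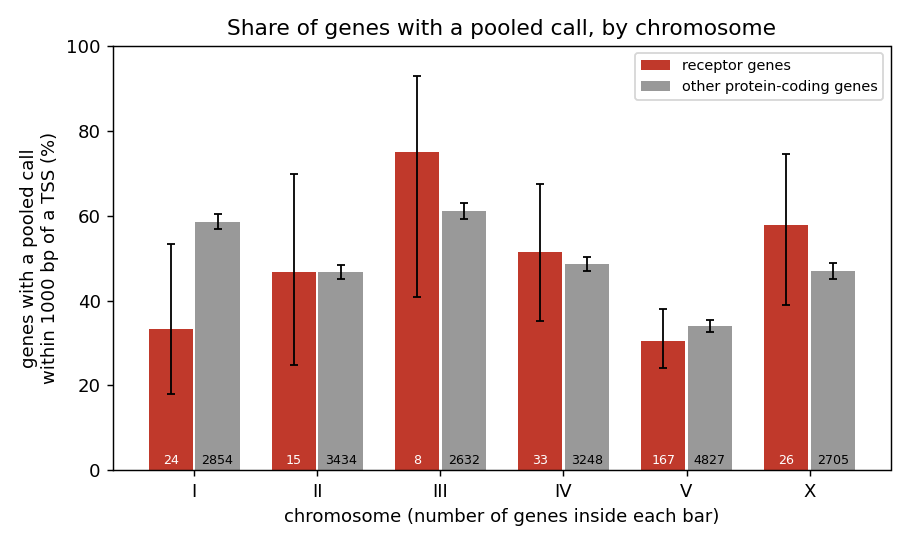
Share of genes with a pooled call within 1000 bp of a TSS, by chromosome, for receptor genes (red, left) and other protein-coding genes (grey, right), with 95% Wilson intervals for counting over genes. The number of genes stands in each bar; on V the shares were 30.5% of 167 and 34% of 4827, and on I, where 33.3% of 24 receptor genes and 58.6% of other genes had a call, they lay farthest apart. On III, IV and X the share was higher in receptor genes.

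After nhr-47, nhr-142 and nhr-286, the next V members were nhr-207 and nhr-208, which lie close to nhr-209. At nhr-207 the pooled signal was 53, with 24.4 in replicate 1 and 25.1 in replicate 2. At nhr-208, next to it, it was 49.1, with 18.1 in replicate 1 and 34.5 in replicate 2. At nhr-209 it was 36.9, with 23.3 in replicate 1 and 29.5 in replicate 2, where the call at the pooled site had 13.8. Each of the 3 had its own pooled summit, at chrV positions 12096482, 12094050 and 12098285. Over the whole family a shared highest call occurred once, for nhr-89 and nhr-169 on I (signal 19.8). Of the remaining leading V genes, nhr-98 had a pooled signal of 40, with 28.4 in replicate 1 and 14.3 in replicate 2. The replicate 2 call lay over 100 bp from the pooled summit. At nhr-57, a gene induced by hypoxia through HIF-1, the pooled signal was 38.5, with 25.8 in replicate 1 and 25.4 in replicate 2. There the replicate 2 call at the pooled site had 12.9.

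Of 8 receptors of fat metabolism and fasting 4 had a pooled call (50%, against 47.5% of all genes) and 0 were bound (against 3.31%). At nhr-66, a partner of nhr-49, the pooled signal was 69, with 39.3 in replicate 1 and 34.3 in replicate 2. At nhr-49, which drives fatty acid desaturation and oxidation, it was 68.2, with 39 in replicate 1 and 39.3 in replicate 2. For both genes 1 of the replicate maxima lay over 100 bp from the pooled summit. Lower values were found at nhr-64 (33.6, called in replicate 1 alone at 26.3) and nhr-13 (22.4, with 15.2 in replicate 1 and 27.4 in replicate 2). The replicate 1 call of nhr-13 lay over 100 bp from the pooled summit. No pooled call was listed at nhr-62, nhr-80, nhr-69 or nhr-25.

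All 5 receptors of the toxin, vitamin B12 and propionate list had a pooled call, against 47.5% of all genes, and 0 were bound, against 3.31%. At nhr-68, which with nhr-10 turns on the propionate shunt, the signal was 46.7, with 17.9 in replicate 1 and 25 in replicate 2. At nhr-86, a sensor in the intestinal response to bacterial metabolites, it was 46.7, with 25.6 in replicate 1 and 19.6 in replicate 2. Both were found in both replicates at the pooled site. At nhr-114, linked to vitamin B12 and methionine, it was 33.1 and at nhr-10 24.5, the first called in replicate 1 alone (21.3) and the second in replicate 2 alone (16.5). The fifth, nhr-8, is given above.

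A list of 19 related genes held ligand enzymes, cofactors and targets of daf-12, nhr-49, nhr-10 and sex-1, and the receptor gene fax-1. Of these 10 had a pooled call (52.6%) and 1 was bound (5.26%), shares near the 47.5% and 3.31% of all genes. The bound gene was din-1, the corepressor of daf-12, with a signal of 115 in the pool, 52 in replicate 1 and 61.8 in replicate 2, at a summit 724 bp from its TSS (chrII:11634108-11634557). Targets had lower signals. They were 59.3 at the acyl-CoA synthetase gene acs-2 and 49.4 at acdh-1 of the propionate shunt. At strm-1, a sterol methyltransferase gene that limits the daf-12 ligand, the signal was 55.8. At the desaturase genes fat-6 and fat-5 they were 29.8 and 29.2, and at xol-1 31.3. The ligand enzyme gene daf-9 had 22.7 and the nhr-49 coactivator gene mdt-15 had 19.5. For daf-36, dhs-16, hsd-1, fat-7, fmo-2 and ncr-1 no list held a call. The gene fax-1, a conserved receptor outside the naming rule, had 23.

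The replicates gave the same site at few members. A call was listed near a TSS at 100 members in replicate 1 (36.6%, against 41.1% of all genes) and at 94 in replicate 2 (34.4%, against 46.7%). Both lists held one at 61 members, and at 26 the replicate summits lay within 100 bp of each other (9.52%, against a background of 16.6% of all genes). By group these were 3 of 14 conserved members, 11 of 166 expanded members on V and 12 of 93 elsewhere. The count was 14 with summits within 50 bp and 39 within 250 bp. In total 127 members had no call in any of the 3 relaxed lists, 85 of them among the 166 expanded members on V. For the 61, the 14 within 50 bp, the 39 within 250 bp and the 127 no share over all genes was taken. These counts have no comparison. Across the 61 members the log10 signals had Pearson's r = 0.643 and Spearman's rho = 0.475, and without the 4 bound members r = 0.416. These values describe genes of the same 2 libraries and are not a sampling error.

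**Figure D4:**
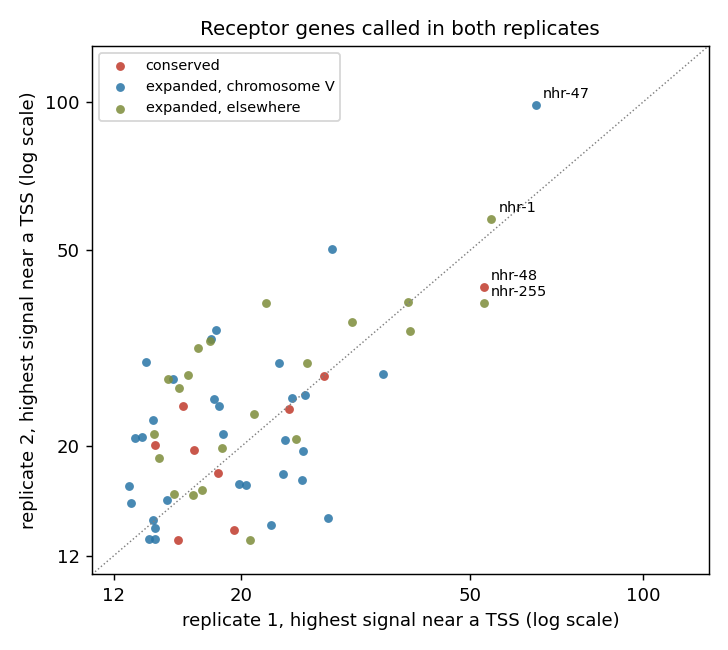
Highest signal near a TSS in replicate 1 (horizontal) and replicate 2 (vertical), both log scales in the authors' units, for the 61 receptor genes called in both lists, coloured by group. The 4 named bound genes lie at the upper right, and most other points lie under 40 in both lists with wide scatter about the dotted line of equal values.

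Summits at receptor genes lay more often upstream and between genes than those at other genes. Of 104 members with a call 69 had the summit upstream of the nearest own TSS (66.3%), against 53.8% of other genes. The share was 6 of 11 at conserved members and 35 of 51 at expanded members on V. Over the 103 distinct calls 52 summits were intergenic by protein-coding gene models (50.5%, against 37% of calls at other genes). Coding exons held 18 (17.5%, against 27.6%) and introns 25 (24.3%, against 27.7%). The member's own TSS was the nearest one in 98 of 104 cases (94.2%), against 84.6% of other genes. The median distance to the TSS was 411 bp for members and 382 bp for other genes. A small RNA gene lay within 200 bp of 2 of the 103 summits (1.94%, against 2.69%), those of nhr-41 and nhr-255.

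**Figure D5:**
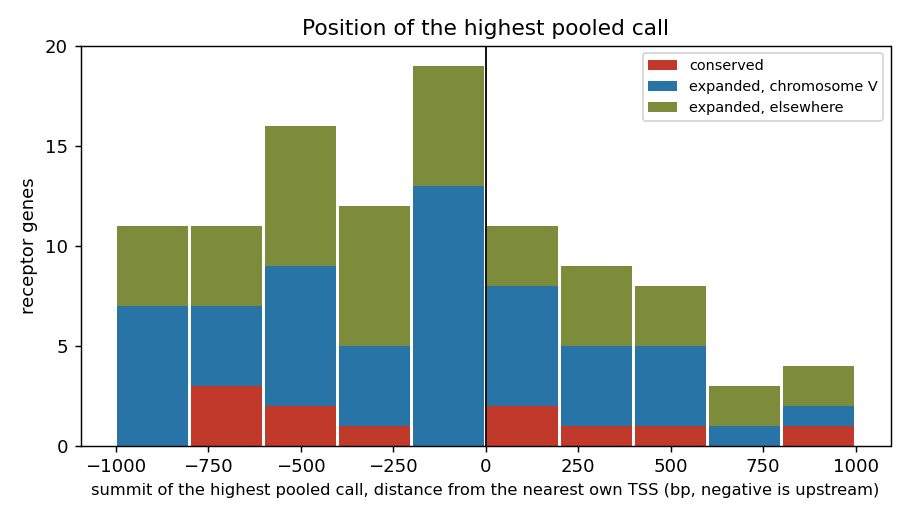
Distance of the highest pooled summit from the nearest TSS of the same receptor gene (bp, negative is upstream, bins of 200 bp), stacked by group for 104 genes. Upstream bins hold 69 genes, and the tallest bin is the one just upstream of the TSS.

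The windows at the bound sites were richer in G and C than most windows of the family. The share of G and C within 50 bp of the summit was 51.5% at nhr-48 and 55.4% at nhr-1 and nhr-255. In the 74 printed bases at nhr-47 it was 52.7%. The median was 35.6% over member calls, 38.6% over calls at other genes and 48.5% over nuclear calls at IDR level. GAGAGA, on either strand and within 50 bp of the summit, was in 12 of 103 member windows (11.7%), against 8.54% at other genes and 8.04% of all 29977 nuclear pooled windows. It was in 9 of 41 windows of expanded members outside V, nhr-1, nhr-49 and nhr-119 among them, in 3 of 51 on V and in 0 of 11 at conserved members. The nuclear receptor core site AGGTCA was in 2 windows (1.94%, against 2.32%), those of nhr-6 and nhr-2. TATAAA was in 16 (15.5%, against 13.3%).

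Inside the genes, over 1000 bp from their own TSSs, 2 of 273 members held an IDR summit. This share was near the background of 0.681% of all genes. These positions lie outside the rule, and the genes were named after their values were seen. In an intron of nhr-17 the pooled signal was 133, with 72.7 in replicate 1 and 64.9 in replicate 2, at a summit (chrX, 12665209) within 200 bp of a tRNA gene. In an intron of nhr-34 it was 92.7, with 47.8 in replicate 1 and 46.5 in replicate 2, 1484 bp from the TSS, with no small RNA gene nearby. Below the IDR set, an intron call of daf-12 had 67.4, with 34.7 in replicate 1 and 35.5 in replicate 2, above the 32.1 near its TSSs. A coding exon call of nhr-239 had 63.5, with 25.5 in replicate 1 and 38.5 in replicate 2. Body calls were present at 7 of 14 conserved members, 27 of 166 on V and 38 of 93 elsewhere, against a background of 28.5% of all genes. Their median gene lengths were 5332, 2146 and 2784 bp, against 2027 bp for all genes. Some body calls on V were also the highest TSS calls of other members, counted above. The body summits of nhr-153, nhr-134, nhr-128 and nhr-143 were those of nhr-136, nhr-96, nhr-103 and nhr-195, in that order.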

How the data were processed

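Chromatin immunoprecipitation of GFP-tagged F10B5.3 was measured in 2 replicates of whole L4 larvae. Per the README notes, the authors' peaks came from each replicate's alignment and a control alignment, and from both alignments pooled, and the lists went into IDR analysis. The caller, aligner, versions and IDR threshold are not given in the sources used here. Signals, as deposited by the authors, have no stated scale and were used within a list, except to plot and correlate the replicates. The deposited −log10 q-value was 3.24 for every IDR peak and ordered nothing. Read depth is unknown, so no interval over reads is given.

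Only the ce11 lists were used, with Ensembl release 115 gene models on WBcel235, the same assembly. Ends of all calls lay inside the 6 nuclear chromosomes. A summit counted for every protein-coding TSS within 1000 bp, and a gene's value was its highest such signal. The 12 mitochondrial protein-coding genes were left out. The pairing of summits with TSSs was tested on simulated data. Python 3.11.15, pandas 2.3.3 and scipy 1.17.1 were used. With 1 group of 2 replicates no test over samples was possible, and none was made over genes. The 95% Wilson intervals in the plot of shares by chromosome cover counting over genes only. The members and gene lists were chosen with earlier results of these data known. Named were all members with an IDR summit, all conserved members, the 10 highest members overall and the 10 highest expanded members on V. Members of the role lists with a call, bound pathway genes and the members next to the lowest IDR signal were also named. Alternatives were 500 and 2000 bp, the nearest TSS only, each replicate alone, calls away from small RNA genes, and the calls of higher signal.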

Additional observations from a re-analysis of the deposited data

How the results depend on the processing

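Which receptor genes were bound depended on the reach and on the replicate. With a reach of 500 bp 2 members (nhr-1 and nhr-47) and 0 conserved members were bound (2.47% of other genes), 5 conserved members had a call (35.1% of other genes), and their share exceeded that of expanded members on V by 13.4 percentage points. At 2000 bp that difference was 38.2 and the median signal 30.1. With the 431 IDR peaks of higher signal 1 member (nhr-47) and 0 conserved members were bound (1.87% of other genes). With the 15000 pooled calls of higher signal, 51 members, 5 conserved members and 21 expanded members on V had a call. Of other genes 31.4% had one. The difference was then 23.1 and the median 36.8, which rises by construction because weak calls are left out. With each replicate alone 2 to 4 members and 0 to 1 conserved members were bound. Of other genes 3.2% were bound with replicate 1 alone and 3.39% with replicate 2 alone. The 2 lost with replicate 2 alone were nhr-48 and nhr-255. A call was then present at 94 to 100 members, 10 to 12 conserved members and 48 to 54 expanded members on V, with a difference of 42.5 to 53.2. Of other genes 41.2% had a call with replicate 1 alone and 46.9% with replicate 2 alone. The median was 17.2 to 19.8, on the scale of the replicate lists. Summits within 50 bp in both replicates were found at 14 members, a count for which no share over all genes was taken. The bound count on V was 1, nhr-47, in all 7 alternatives. The causes were not tested. No paired analysis was possible because there was 1 group. Depth is unknown, so a gene without a call had no call listed, which does not show absence of F10B5.3.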

Other observations

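Calls near a TSS at 42 members were listed in a replicate and not in the pool, 30 of them at expanded members on V. At 8 of the 42 both replicates had one, and at 2, nhr-156 on V and nhr-273 on II, the replicate summits lay within 100 bp of each other. The signals were 23.9 in replicate 1 and 20.6 in replicate 2 at nhr-156, and 15.3 and 16 at nhr-273. At nhr-228 on V they were 17.7 and 33.1, at different sites. Conversely, 13 members had a pooled call and none near a TSS in either replicate list, 10 of them on V, with nhr-168 highest at 29.2. Expanded members on V made up 166 of all 273 members. For the 42 and the 13 no share over all genes was taken, so these counts have no comparison.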
